A study of Mus musculus with 32 samples.

Results

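Photoreceptors of wild type (WT) mice were compared between circadian time (CT) 10, late in the animals' subjective day, and CT1, just after subjective dawn. The members are the 8 WT libraries that their titles assign to these times, 4 at CT10 (replicates 1, 2, 4 and 5) and 4 at CT1 (replicates 1, 3, 4 and 5), out of 32 libraries in the series. The same pair of times was sampled in Per1-/-Per2Brdm1 mice (KO), which carry altered copies of the clock repressors Per1 and Per2, with 4 libraries at CT10 and 4 at CT1. The remaining 16 libraries hold both genotypes at CT19 and CT22 and enter the shared estimate of the spread. All mice, of either genotype, were males aged 6 weeks from the strain given as C57BL/6/J x 129 SvEvBrd. The photoreceptors were cut from frozen eyes by laser capture microdissection, and RNA was sequenced and counted per gene. The title of the CT1 library numbered 5 names 2 animals, 5 and 6, and it was used as 1 library. The title of the CT10 library numbered 5 has the letter R where the other 7 WT titles have L. The labels number the animals within a group, and the p-values treat libraries as separate animals as far as those numbers say.

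Rods and cones carry their own circadian clock, in which CLOCK and BMAL1 drive the genes of the PER and CRY repressors. Dopamine, which the inner retina releases mostly by day, acts on photoreceptors through the D4 receptor and lowers cyclic AMP, which rises by night. Photoreceptors shed the tips of their outer segments each day around dawn, and the pigment epithelium engulfs them. The study asked how Per1 and Per2 take part in the daily rhythm of that engulfment.

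Library totals ranged from 28014675 to 34582742 counts at CT10 and from 24875415 to 30128180 counts at CT1, so 1 CPM (a count scaled to the library's total) rested on at least 24.9 counts. CPM values are further scaled by TMM, which allows for a few abundant genes. Rod genes matched the tissue label: the mean log2 CPM of 22 rod phototransduction genes was 11.49 to 11.74 at CT10 and 11.47 to 11.72 at CT1. RNA of other cells was present as well. The 22 lens markers had mean log2 CPM of 5.65 to 7.55 at CT10 and 6.08 to 8.09 at CT1, ranges that overlap, and none of the 22 was called between the times by edgeR. Of the 22, 21 had a negative log2 fold change of CT10 over CT1, with a median of -0.52. The mean log2 CPM of bipolar, amacrine and Müller cell markers pooled was 2.53 to 3.38 at CT10 and 3.15 to 4.05 at CT1. Beside these, the fold changes in WT moved with the GC content and length of the transcripts. Among genes with an average log2 CPM of at least 1, the quintile with the lowest GC content (up to 43.7%) held 203 genes called higher and 8 called lower at CT10, and the quintile with the highest (at least 55.2%) held 12 higher and 214 lower. The shortest quintile held 19 higher and 155 lower, and the longest 174 higher and 38 lower. For this reason calls are also given with the inner retina level as a covariate and with a smooth trend on GC content and length removed from each library.

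**Figure D1:**
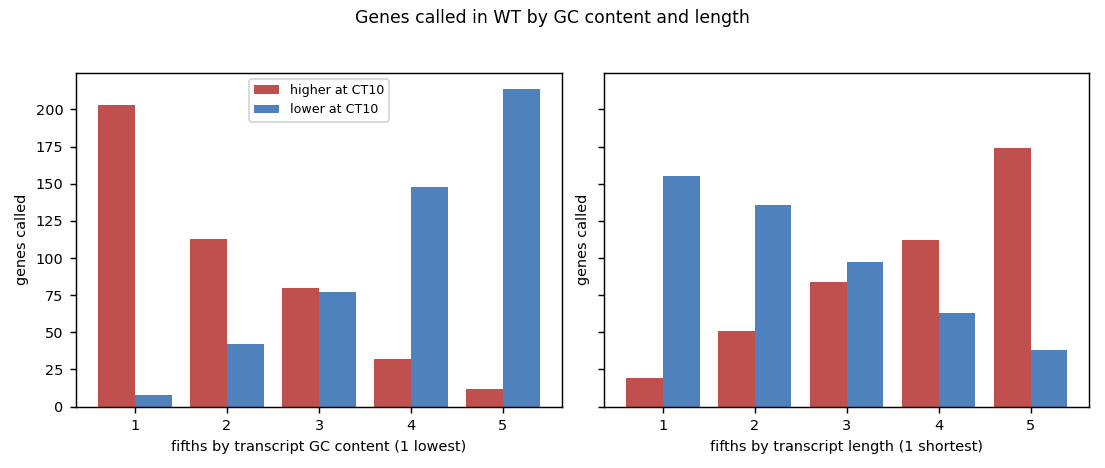
Number of genes called higher (red) or lower (blue) at CT10 than at CT1 in WT, in quintiles of the genes by GC content (left) and by length (right) of the longest annotated transcript. Calls higher at CT10 fall from 203 in the lowest GC quintile to 12 in the highest, and calls lower at CT10 climb from 8 to 214.

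Between CT10 and CT1, 1036 of 17871 tested genes were called in WT, 494 higher and 542 lower at CT10 (edgeR quasi-likelihood test, Benjamini-Hochberg adjusted p under 0.05). That is 5.80% of the tested genes, with 2.76% called higher and 3.03% called lower. The CPM ranges of the 2 groups did not overlap for 11.1% of all tested genes, and 409 of the called genes differed by at least 0.58 on the log2 scale. The genes that fell included the dopamine D4 receptor Drd4, the phosphodiesterase Pde10a, the interferon regulatory factor Irf7, the nuclear receptor Nr4a1, the rod calcium sensor Rcvrn and 7 of 22 immediate early genes. The genes that rose included the adenylyl cyclase Adcy1, the fatty acid oxidation enzymes Acadm and Cpt1a, the synaptic genes Rims2 and Syt1 and the kinesin Kif4. The synaptic genes Rims1 and Stx3 were called lower, and the median log2 fold change of the 24 ribbon synapse genes tested was -0.10. In tissue taken in bulk, fewer cells of a type and less RNA per cell cannot be told apart.

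The number of calls depended on which libraries entered, and was 189 with only the 8 WT libraries of the 2 times in the fit. It was 492 without CT1 replicate 1, 537 without CT1 replicate 5, 615 without CT10 replicate 2, 641 without CT10 replicate 1 and 686 without CT10 replicate 4. It was 708 without CT10 replicate 5, and it rose to 1136 without CT1 replicate 4 and to 1467 without CT1 replicate 3. A total of 312 genes were called, with the same sign, in every one of the 8 fits that each left out 1 WT library, 150 higher and 162 lower at CT10. Of these, 252 were also called with the inner retina level as a covariate and with the GC and length trend removed, 126 in each direction. Unless a sentence says otherwise, the genes described below were among the 312.

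The smallest p-value of the comparison belonged to Drd4 (ENSMUSG00000025496, GRCm38 chr7:141292006-141296464, plus strand). Drd4 stood at 366, 297, 315 and 339 CPM in the CT10 libraries, against 723, 589.5, 734 and 821 CPM in the CT1 libraries. Every CT10 library lay below every CT1 library (log2 fold change -1.12, SE 0.11, adjusted p = 2.64e-07). At the 4 times in WT it averaged 717 ± 95.6 at CT1, 329 ± 29.6 at CT10, 820.2 ± 58.2 at CT19 and 697 ± 31.7 at CT22 CPM (SD, n = 4 each), so that CT10 alone was low. In KO it averaged 580.2 ± 102 CPM at CT10, against 660.4 ± 39.3 CPM at CT1, with ranges that overlap, and the WT minus the KO fold change was -0.94 (SE 0.15, adjusted p = 0.00352) on the log2 scale.

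Other genes of dopamine and cyclic AMP signalling were called in both directions. Pde10a, which degrades cyclic AMP and cyclic GMP, stood at 3.56, 4.11, 2.86 and 3.90 CPM in the CT10 libraries, against 20.6, 9.27, 18.9 and 16.5 CPM in the CT1 libraries. The CT10 libraries were all below the CT1 libraries, of which replicate 3 was the lowest (log2 fold change -2.17, SE 0.27, adjusted p = 1.71e-05). The cyclic AMP phosphodiesterase Pde8b, a gene outside the list fixed for this pathway and singled out after its values were seen, stood at 140.4, 171, 166 and 136 CPM in the CT10 libraries, against 231, 243, 236 and 207 CPM in the CT1 libraries, again with no overlap (log2 fold change -0.58, SE 0.08, adjusted p = 5.44e-05). Its relative Pde8a averaged 128 ± 16.2 CPM at CT10, against 177 ± 15.4 CPM at CT1 (log2 fold change -0.47, adjusted p = 0.00556). In the other direction, the calcium-stimulated adenylyl cyclase Adcy1, which makes cyclic AMP, stood at 667, 790.0, 688 and 793 CPM in the CT10 libraries, against 416, 571, 445 and 382 CPM in the CT1 libraries. All CT10 libraries exceeded all CT1 libraries (log2 fold change 0.70, SE 0.13, adjusted p = 0.00148). Akap5, which anchors protein kinase A to membranes, stood at 5.01, 4.05, 2.998 and 2.95 CPM in the CT10 libraries, against 1.66, 1.64, 1.58 and 1.46 CPM in the CT1 libraries, a low but non-overlapping level (log2 fold change 1.24, SE 0.22, adjusted p = 0.00114).

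Of the 27 genes listed for dopamine and cyclic AMP signalling 23 were tested, and 2 were called higher (Adcy1 and Akap5) and 6 lower (Drd4, Pde10a, Pde8a, Adcy8, Prkaca and Prkar1b), against 2.76% and 3.03% of all tested genes. The list's median log2 fold change was -0.28, and that of all tested genes -0.02. With the inner retina level as a covariate the list's median was -0.06, with the GC and length trend removed -0.25, and with both -0.07. The calls of Prkaca and Prkar1b, the catalytic and a regulatory subunit of protein kinase A, were weaker. Prkaca averaged 73.4 ± 5.76 CPM at CT10, against 88.4 ± 7.07 CPM at CT1 and lost its call without any one of CT10 replicate 1, CT10 replicate 4, CT1 replicate 1 and CT1 replicate 5 (adjusted p 0.0523 to 0.0882). Prkar1b averaged 7.49 ± 0.777 CPM at CT10, against 11.8 ± 3.14 CPM at CT1 and lost it without any one of CT10 replicate 1, CT10 replicate 2, CT10 replicate 4, CT10 replicate 5, CT1 replicate 1 and CT1 replicate 5 (adjusted p 0.0511 to 0.179). The cyclase Adcy8 averaged 0.398 ± 0.116 CPM at CT10, against 1.23 ± 0.737 CPM at CT1, and its call was lost without CT1 replicate 1 (adjusted p 0.0556). With the inner retina level as a covariate 5 of the 8 calls held, the exceptions being Adcy8, Prkaca and Prkar1b, and with the GC and length trend removed 6 held, all but Prkaca and Prkar1b. None of the 23 was called in KO by edgeR. The difference between the genotypes was called for 6, beside 0.588% of all tested genes. These were Drd4, Pde10a, Adcy1, Akap5, Adcy8 and Prkar1b. Akap5 stood higher in KO at both times, at 11.1 ± 1.12 CPM at CT10, against 14.04 ± 2.60 CPM at CT1, and did not rise there at CT10 (-0.34 on the log2 scale).

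**Figure D2:**
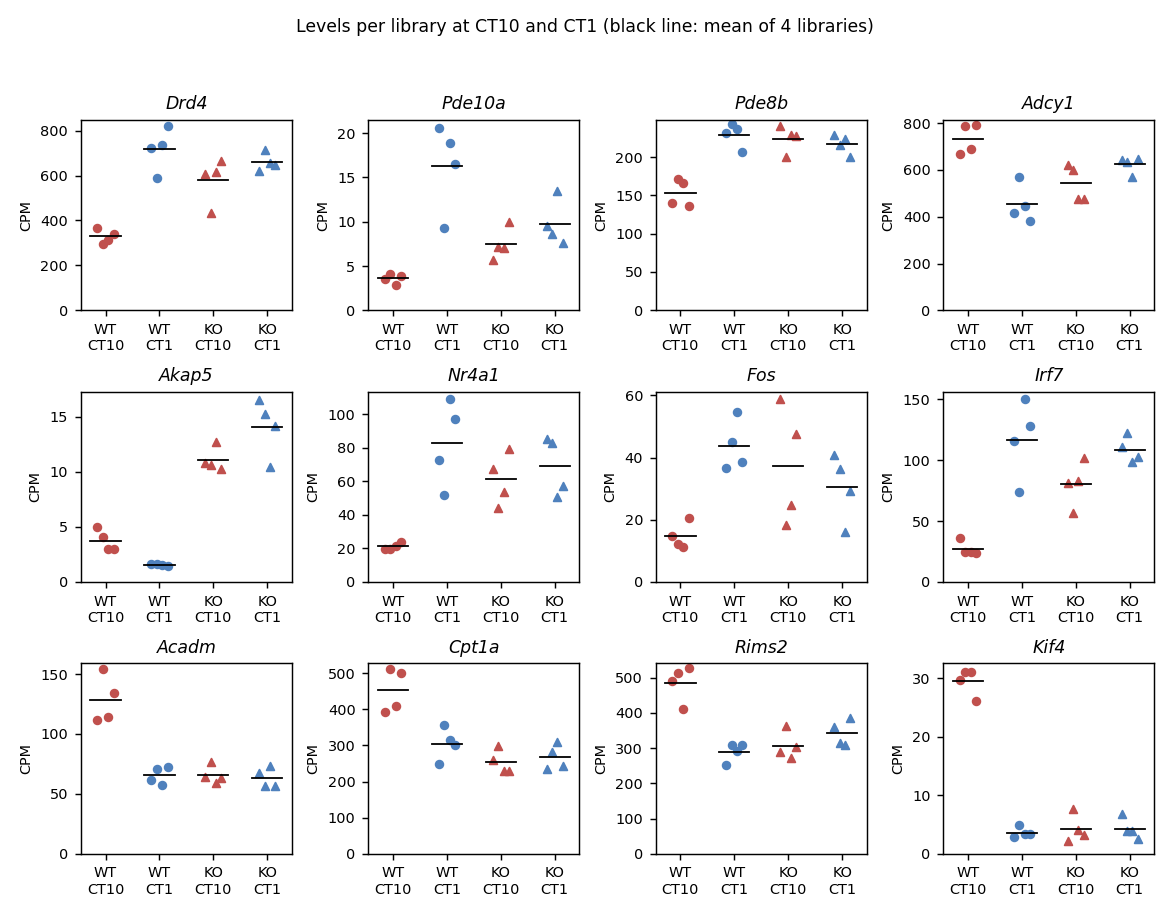
CPM of 12 genes in each library of WT at CT10 and CT1 and of KO at CT10 and CT1. Circles are WT and triangles KO libraries, red CT10 and blue CT1, and the black line is the mean of 4 libraries. In WT the CT10 and CT1 libraries of each of the 12 genes do not overlap, as for Drd4 with 297 to 366 CPM at CT10 and 589.5 to 821 CPM at CT1. The 12 were picked from the called genes, and called genes that overlap, such as Dusp1, Sag and Dbp, are not drawn. Of all tested genes 11.1% had ranges that did not overlap.

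Immediate early genes code for transcription factors and feedback regulators induced within minutes by calcium or cyclic AMP signals. Of 25 listed, 22 were tested, 7 were called lower at CT10 and 0 higher, beside 3.03% lower and 2.76% higher of all genes. Of the 22, 17 had a negative and 5 a positive log2 fold change. The list's median was -0.35, and it was -0.26 with the inner retina level as a covariate, -0.31 with the GC and length trend removed and -0.16 with both. Nr4a1 (ENSMUSG00000023034, chr15:101254269-101274795, plus strand) stood at 19.9, 19.6, 21.6 and 23.8 CPM in the CT10 libraries, against 72.8, 51.7, 109 and 97.5 CPM in the CT1 libraries. The 4 CT10 values lay close together and all below the CT1 values (log2 fold change -1.96, SE 0.24, adjusted p = 1.84e-05). Fos, a subunit of the AP-1 factor, stood at 14.8, 12.2, 11.1 and 20.6 CPM in the CT10 libraries, against 36.7, 44.9, 54.7 and 38.7 CPM in the CT1 libraries, with no overlap (log2 fold change -1.57, SE 0.34, adjusted p = 0.00807). Junb, a partner of Fos, stood at 13.5, 13.7, 12.5 and 14.3 CPM in the CT10 libraries, against 22.9, 24.97, 26.3 and 32.3 CPM in the CT1 libraries (log2 fold change -0.98, SE 0.17, adjusted p = 0.000741). Ier2 stood at 16.7, 16.4, 17.7 and 26.4 CPM in the CT10 libraries, against 38.4, 34.2, 36.5 and 44.96 CPM in the CT1 libraries, and here too the groups were apart (log2 fold change -0.99, SE 0.18, adjusted p = 0.00119). The phosphatase Dusp1, which switches off MAP kinases, stood at 11.4, 8.78, 8.99 and 14.96 CPM in the CT10 libraries, against 20.8, 14.5, 27.6 and 27.98 CPM in the CT1 libraries, so that the groups overlapped (log2 fold change -1.04, SE 0.19, adjusted p = 0.00171). Nr4a3 averaged 0.24 ± 0.155 CPM at CT10, against 0.97 ± 0.362 CPM at CT1 (log2 fold change -1.98, adjusted p = 0.00824), and Jund 37.2 ± 2.51 CPM at CT10, against 47.4 ± 4.004 CPM at CT1 (log2 fold change -0.35, adjusted p = 0.0427). The Nr4a3 averages lay under 1 CPM at both times, so its fold change rests on few counts. Jund was called in 1 of the 8 fits without 1 library, and lost its call without any one of CT10 replicate 1, CT10 replicate 2, CT10 replicate 4, CT10 replicate 5, CT1 replicate 1, CT1 replicate 4 and CT1 replicate 5 (adjusted p 0.0563 to 0.116). Sik1, a kinase induced by cyclic AMP and no member of the list, stood at 11.2, 6.49, 6.42 and 9.89 CPM in the CT10 libraries, against 18.1, 14.4, 29.9 and 23.1 CPM in the CT1 libraries, without overlap (log2 fold change -1.32, SE 0.26, adjusted p = 0.00316).

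Other members of the list varied between libraries of a time. Egr1 stood at 3.71, 8.75, 3.50 and 66.2 CPM in the CT10 libraries, against 30.04, 80.1, 68.5 and 44.1 CPM in the CT1 libraries. CT10 replicate 5 reached the level of the CT1 libraries, and Egr1 was not called (log2 fold change -1.43, SE 0.84, adjusted p = 0.326). With the inner retina level as a covariate 6 of the 7 calls held, with the GC and length trend removed 6, and with both together 4, those of Nr4a1, Nr4a3, Ier2 and Dusp1. None of the 22 was called in KO by edgeR, where their median log2 fold change was 0.13. The difference between the genotypes was called for Nr4a1, at -1.79 (SE 0.33, adjusted p = 0.0107), and Ier2, at -1.12 (SE 0.25, adjusted p = 0.033), beside 0.588% of all tested genes. At the 4 times in WT, Nr4a1 averaged 82.8 ± 25.8 at CT1, 21.2 ± 1.95 at CT10, 110.5 ± 10.8 at CT19 and 124 ± 20.6 at CT22 CPM, so that CT10 was the low time.

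The promoters of 5 of the 7 lower immediate early genes are in the RefSeq table (GRCm38.p6), and are shown because these genes moved together. Each line gives the 250 bases before the start site, 5′ to 3′ on the gene's strand, with TGACG or its reverse complement CGTCA, the core of the cyclic AMP response element, in capitals. This motif was chosen after the values were seen.
Nr4a1 (chr15:101266596-101266845, plus strand): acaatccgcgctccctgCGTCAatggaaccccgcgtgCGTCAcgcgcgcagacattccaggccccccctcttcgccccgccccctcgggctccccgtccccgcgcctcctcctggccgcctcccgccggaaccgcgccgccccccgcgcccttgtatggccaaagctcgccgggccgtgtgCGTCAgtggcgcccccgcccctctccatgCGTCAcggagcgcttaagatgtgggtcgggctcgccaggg
Nr4a3 (chr4:48045055-48045304, plus strand): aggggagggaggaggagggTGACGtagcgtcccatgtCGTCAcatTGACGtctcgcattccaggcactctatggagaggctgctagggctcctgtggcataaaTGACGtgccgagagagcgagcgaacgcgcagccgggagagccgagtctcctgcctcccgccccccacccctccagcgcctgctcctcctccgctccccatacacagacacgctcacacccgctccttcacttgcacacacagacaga
Fos (chr12:85473640-85473889, plus strand): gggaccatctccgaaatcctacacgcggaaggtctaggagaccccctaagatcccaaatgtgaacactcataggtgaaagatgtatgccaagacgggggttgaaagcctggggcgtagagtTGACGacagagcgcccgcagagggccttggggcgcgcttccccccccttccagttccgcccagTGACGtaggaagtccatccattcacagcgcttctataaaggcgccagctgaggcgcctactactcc
Junb (chr8:84978749-84978998, minus strand): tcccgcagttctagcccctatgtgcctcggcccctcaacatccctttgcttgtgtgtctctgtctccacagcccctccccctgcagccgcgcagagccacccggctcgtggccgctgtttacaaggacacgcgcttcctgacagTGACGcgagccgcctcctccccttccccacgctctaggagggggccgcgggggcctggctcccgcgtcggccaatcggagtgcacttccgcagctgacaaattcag
Dusp1 (chr17:26508473-26508722, minus strand): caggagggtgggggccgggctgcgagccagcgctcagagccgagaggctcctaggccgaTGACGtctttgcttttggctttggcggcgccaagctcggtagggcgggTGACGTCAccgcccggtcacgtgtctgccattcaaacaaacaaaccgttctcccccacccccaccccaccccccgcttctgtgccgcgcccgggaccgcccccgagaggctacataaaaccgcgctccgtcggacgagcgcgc
Nr4a1 and Nr4a3 held the motif at 4 places each, Dusp1 at 3, 2 of which overlap as TGACGTCA, Fos at 2 and Junb at 1. Of 32851 promoters of 300 bases (250 before and 50 after the start), 20.8% held it on either strand. Ier2 and Jund were not matched in the table.

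Among the genes of fatty acid oxidation, 2 of 27 tested (30 listed) were called, both higher at CT10, beside the background of 2.76%. Acadm, the medium-chain acyl-CoA dehydrogenase of mitochondria (ENSMUSG00000062908, chr3:153922357-153944632, minus strand), stood at 112, 154, 114 and 134 CPM in the CT10 libraries, against 61.6, 70.7, 57.2 and 72.6 CPM in the CT1 libraries. The lowest CT10 library lay above the highest CT1 library (log2 fold change 0.97, SE 0.11, adjusted p = 8.25e-06, a 1.96-fold difference). At the 4 times in WT it averaged 65.5 ± 7.37 at CT1, 129 ± 19.5 at CT10, 55.5 ± 3.26 at CT19 and 56.8 ± 3.69 at CT22 CPM, and CT10 was the only high time. In KO it averaged 65.7 ± 7.34 CPM at CT10, against 63.5 ± 8.07 CPM at CT1, and the WT difference exceeded that of KO by 0.92 (SE 0.16, adjusted p = 0.00589). Cpt1a, which passes fatty acids into mitochondria, stood at 392, 513, 408 and 501 CPM in the CT10 libraries, against 249, 357, 315 and 300.0 CPM in the CT1 libraries, also with no overlap (log2 fold change 0.57, SE 0.13, adjusted p = 0.00687). Both calls held with the inner retina level, with the GC and length trend removed and with both. The other 25 were not called, and the list's median log2 fold change was -0.06. Acoxl, an acyl-CoA oxidase-like gene outside the list, averaged 5.39 ± 1.44 CPM at CT10, against 2.61 ± 0.207 CPM at CT1 (log2 fold change 1.04, adjusted p = 0.0109) and lost its call without CT10 replicate 2 (adjusted p 0.0575). Me1, which makes NADPH for fatty acid synthesis, was the 1 called gene of the 24 listed for that pathway, at 170.1 ± 21.4 CPM at CT10, against 128 ± 19.5 CPM at CT1 (log2 fold change 0.41, adjusted p = 0.0471). It was called in 1 of the 8 fits without 1 library, and its calls were lost without any one of CT10 replicate 1, CT10 replicate 2, CT10 replicate 4, CT10 replicate 5, CT1 replicate 1, CT1 replicate 4 and CT1 replicate 5 (adjusted p 0.0554 to 0.146).

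The 250 bases before the start sites of these 2 genes are given from the same table, because both rose. Capitals mark AGGTCA or its reverse complement TGACCT, the core site of ROR, REV-ERB and other nuclear receptors, which was found at 1 place in each. Of the 32851 promoters 16.3% held it.
Acadm (chr3:153944644-153944893, minus strand): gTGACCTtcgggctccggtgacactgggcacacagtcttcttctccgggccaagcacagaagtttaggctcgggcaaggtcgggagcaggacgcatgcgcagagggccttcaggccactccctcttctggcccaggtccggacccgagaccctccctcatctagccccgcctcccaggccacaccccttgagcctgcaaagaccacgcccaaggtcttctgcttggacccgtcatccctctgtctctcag
Cpt1a (chr19:3323051-3323300, plus strand): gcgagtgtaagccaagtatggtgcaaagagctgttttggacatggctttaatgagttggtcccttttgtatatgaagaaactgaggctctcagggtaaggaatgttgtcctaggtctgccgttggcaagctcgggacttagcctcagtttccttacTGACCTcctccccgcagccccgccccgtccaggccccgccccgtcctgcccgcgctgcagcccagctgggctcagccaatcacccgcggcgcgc

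Genes of the photoreceptor terminal, the ribbon synapse that releases glutamate, were called in both directions. Rims2, a scaffold of the active zone (ENSMUSG00000037386, chr15:39198261-39684372, plus strand), stood at 491, 515, 411 and 527 CPM in the CT10 libraries, against 251, 308, 291 and 308 CPM in the CT1 libraries. All CT10 libraries were above all CT1 libraries (log2 fold change 0.75, SE 0.10, adjusted p = 1.84e-05). Its paralog Rims1 went the other way and stood at 4.09, 3.25, 3.46 and 3.99 CPM in the CT10 libraries, against 6.88, 4.58, 7.03 and 4.90 CPM in the CT1 libraries (log2 fold change -0.66, SE 0.18, adjusted p = 0.0273). The Rims1 call was lost without any one of CT10 replicate 2, CT10 replicate 4, CT1 replicate 1 and CT1 replicate 4 (adjusted p 0.0641 to 0.0983). Syt1, the calcium sensor of vesicle fusion, averaged 953 ± 76.1 CPM at CT10, against 719 ± 61.3 CPM at CT1 (log2 fold change 0.41, adjusted p = 0.00958), and Stx3, the syntaxin of ribbon terminals, 1019.8 ± 92.6 CPM at CT10, against 1293 ± 83.1 CPM at CT1 (log2 fold change -0.34, adjusted p = 0.0327). Stx3 lost its call without any one of CT10 replicate 1, CT10 replicate 5, CT1 replicate 1 and CT1 replicate 5 (adjusted p 0.0598 to 0.108). Of the 24 ribbon synapse genes tested, these 4 were called, 2 in each direction, beside 2.76% higher and 3.03% lower of all genes, and the median log2 fold change was -0.10. All 4 calls held with the GC and length trend removed and 3 with the inner retina level as a covariate, the exception being Rims1 (adjusted p = 0.152). With both, those of Rims2 and Stx3 held, and not those of Syt1 (adjusted p = 0.0843) and Rims1 (adjusted p = 0.0713). Sv2c, a vesicle protein outside the list, averaged 5.80 ± 2.05 CPM at CT10, against 2.23 ± 1.37 CPM at CT1 (log2 fold change 1.37, adjusted p = 0.0259). Its call was lost without any one of CT10 replicate 1, CT1 replicate 1, CT1 replicate 4 and CT1 replicate 5 (adjusted p 0.059 to 0.102). The difference between the genotypes was called for Rims2, at 0.91 (SE 0.14, adjusted p = 0.00237), beside 0.588% of all tested genes.

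**Figure D3:**
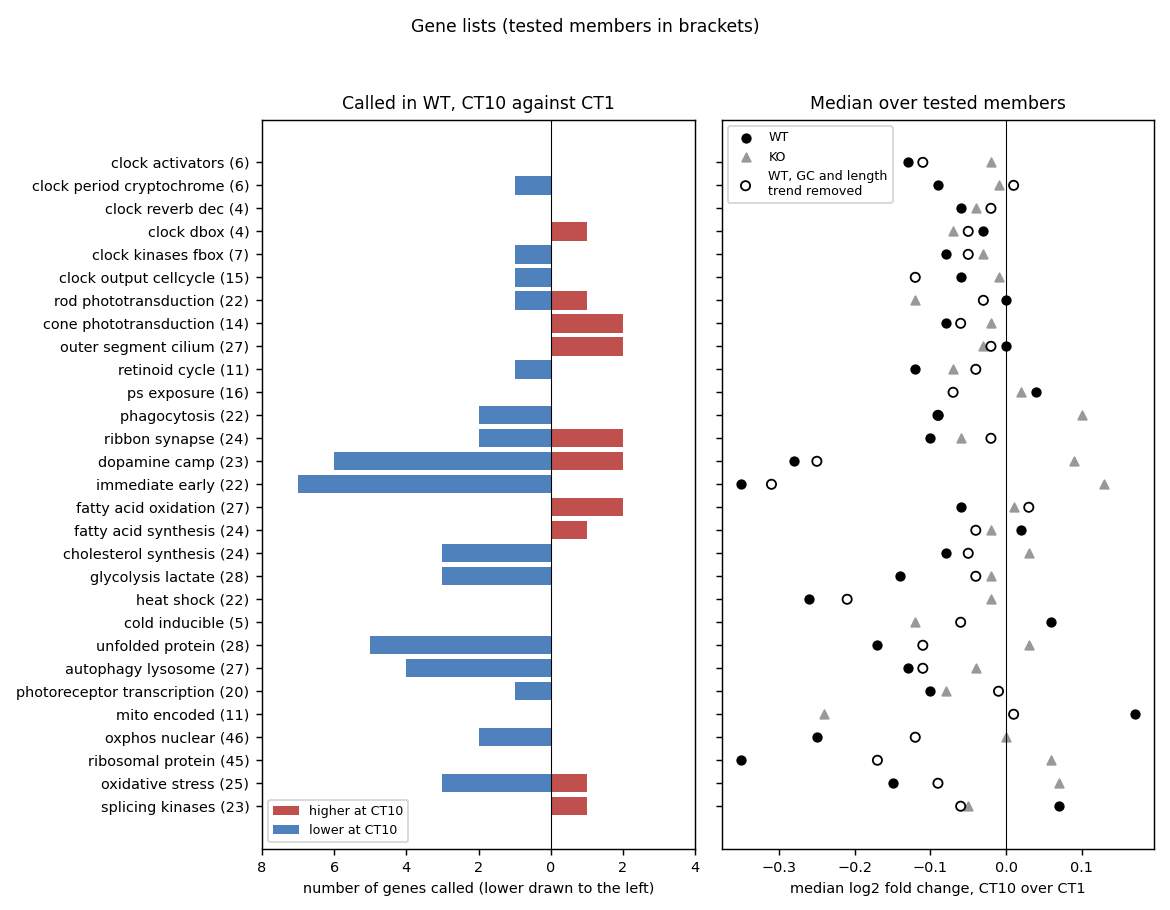
For each gene list (tested members in brackets), the left panel gives the number of genes called higher (red, to the right) and lower (blue, to the left) at CT10 than at CT1 in WT. The right panel gives the median log2 fold change of the tested members in WT (filled circles), in KO (grey triangles) and in WT with the GC and length trend removed (open circles). The immediate early list has 7 members called lower and 0 higher and a WT median of -0.35, and 0 ribosomal protein genes are called at the same median of -0.35.

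In the rod phototransduction cascade, 1 of 22 genes was called higher and 1 lower, beside 2.76% higher and 3.03% lower of all genes. Recoverin, Rcvrn, which tunes rhodopsin kinase, stood at 1371, 1549, 1307 and 1381 CPM in the CT10 libraries, against 2785, 2197, 1953 and 3121 CPM in the CT1 libraries. Each CT10 library was below each CT1 library (log2 fold change -0.84, SE 0.14, adjusted p = 0.000408). The rod arrestin Sag stood at 7102, 12938, 7445 and 9639 CPM in the CT10 libraries, against 5892, 6762, 3937 and 8224 CPM in the CT1 libraries, with overlap (log2 fold change 0.58, SE 0.18, adjusted p = 0.0451), and lost its call without any one of CT10 replicate 2, CT10 replicate 5, CT1 replicate 1 and CT1 replicate 4 (adjusted p 0.0893 to 0.199). Of 14 cone genes, 2 were called higher and 0 lower, a list with a median log2 fold change of -0.08. Cone arrestin, Arr3, stood at 519, 545, 811 and 478 CPM in the CT10 libraries, against 266, 292, 342 and 264 CPM in the CT1 libraries, and CT10 replicate 4 was the highest (log2 fold change 1.02, SE 0.28, adjusted p = 0.0329). It lost its call without any one of CT10 replicate 2, CT10 replicate 4, CT1 replicate 1, CT1 replicate 3 and CT1 replicate 5 (adjusted p 0.0515 to 0.127). The cone channel subunit Cngb3 averaged 42.3 ± 4.83 CPM at CT10, against 31.2 ± 2.32 CPM at CT1 (log2 fold change 0.44, adjusted p = 0.036) and was called in 1 of the 8 fits without 1 library. Its call was lost without any one of CT10 replicate 1, CT10 replicate 2, CT10 replicate 4, CT1 replicate 1, CT1 replicate 3, CT1 replicate 4 and CT1 replicate 5 (adjusted p 0.0512 to 0.123). With the inner retina level as a covariate only the Rcvrn call held among these 4. With the GC and length trend removed those of Rcvrn and Arr3 held.

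Among structural genes of the outer segment and cilium, 2 of 27 were called, both higher, beside 2.76% of all genes, and the median log2 fold change was 0.0. Pcdh15, a protocadherin of the outer segment base, averaged 496 ± 81.9 CPM at CT10, against 250.3 ± 45.8 CPM at CT1 (log2 fold change 0.99, adjusted p = 0.0096). Rpgr, a regulator of the connecting cilium, averaged 69.2 ± 4.10 CPM at CT10, against 46.7 ± 11.6 CPM at CT1 (log2 fold change 0.57, adjusted p = 0.0246) and lost its call without any one of CT10 replicate 4, CT1 replicate 1 and CT1 replicate 5 (adjusted p 0.0712, 0.112 and 0.106). The Rpgr call held neither with the inner retina level as a covariate (adjusted p = 0.0996) nor with the GC and length trend removed (adjusted p = 0.0698). The Pcdh15 call held under each of these and not with both (adjusted p = 0.0575). Of 11 genes of the retinoid cycle, which restores the visual pigment, 1 was called lower, beside 3.03% of all genes. This was Rdh11, at 84.8 ± 9.13 CPM at CT10, against 107 ± 7.94 CPM at CT1 (log2 fold change -0.33, adjusted p = 0.0456). Its call was lost without any one of CT10 replicate 1, CT10 replicate 2, CT10 replicate 4, CT1 replicate 1, CT1 replicate 4 and CT1 replicate 5 (adjusted p 0.0538 to 0.126). Among 20 photoreceptor transcription factors 1 was called, also lower, beside the same 3.03%. It was Casz1, at 688 ± 56.8 CPM at CT10, against 902 ± 100.1 CPM at CT1 (log2 fold change -0.39, adjusted p = 0.0129), and its call was lost without CT10 replicate 2 (adjusted p 0.0544).

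The lists closest to the question of the study were those for exposing and engulfing outer segment tips. Of 16 tested genes for exposing phosphatidylserine, the membrane lipid that marks outer segment tips for uptake, 0 were called by edgeR, and their median log2 fold change was 0.04. Of 22 tested genes for the recognition and engulfment of tips, 0 were called higher and 2 lower, beside 2.76% and 3.03% of all genes. Gas6, a bridging ligand between phosphatidylserine and the receptor Mertk, stood at 239.9, 278, 232 and 233 CPM in the CT10 libraries, against 286, 307, 302 and 346 CPM in the CT1 libraries, without overlap (log2 fold change -0.34, SE 0.09, adjusted p = 0.0194). Elmo1, which acts on Rac in engulfing cells, averaged 4.41 ± 1.05 CPM at CT10, against 7.06 ± 0.928 CPM at CT1 (log2 fold change -0.68, adjusted p = 0.0417). The Gas6 call was lost without any one of CT10 replicate 1, CT10 replicate 5 and CT1 replicate 5 (adjusted p 0.0539, 0.0596 and 0.0701). The Elmo1 call was lost without any one of CT10 replicate 1, CT10 replicate 2, CT10 replicate 4, CT1 replicate 1 and CT1 replicate 3 (adjusted p 0.0635 to 0.139). Gas6 kept its call with the inner retina level as a covariate (adjusted p = 0.00982) and not with the GC and length trend removed (adjusted p = 0.21), and Elmo1 the reverse (adjusted p = 0.312 and 0.0234). CT10 and CT1 are 2 of the 4 times sampled, and the engulfing cells lie in the pigment epithelium, whose 20 markers summed to 167 to 199 CPM at CT10 and 225 to 349 CPM at CT1.

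Of the 27 core clock genes listed, all were tested and 3 were called, 1 higher and 2 lower at CT10, beside 2.76% higher and 3.03% lower of all genes. Their median log2 fold change was -0.08. Dbp, a clock-driven activator that binds D-boxes, stood at 57.7, 38.7, 44.8 and 52.996 CPM in the CT10 libraries, against 43.8, 28.7, 33.6 and 37.95 CPM in the CT1 libraries. The groups overlapped, since CT10 replicate 2 was below CT1 replicate 1 (log2 fold change 0.43, SE 0.12, adjusted p = 0.036). Cry2, a repressor of CLOCK and BMAL1, stood at 61.3, 49.4, 59.4 and 59.8 CPM in the CT10 libraries, against 76.6, 62.998, 76.5 and 72.3 CPM in the CT1 libraries, without overlap (log2 fold change -0.33, SE 0.08, adjusted p = 0.0169). Csnk1e, a kinase of PER proteins, averaged 47.7 ± 2.04 CPM at CT10, against 58.5 ± 6.15 CPM at CT1 (log2 fold change -0.30, adjusted p = 0.0244). Dbp lost its call without any one of CT10 replicate 1, CT10 replicate 4, CT10 replicate 5, CT1 replicate 3, CT1 replicate 4 and CT1 replicate 5 (adjusted p 0.0527 to 0.137). Cry2 lost it without CT10 replicate 2 or CT1 replicate 1 (adjusted p 0.0864 and 0.0607), and Csnk1e without any one of CT10 replicate 1, CT10 replicate 2, CT10 replicate 5, CT1 replicate 1, CT1 replicate 4 and CT1 replicate 5 (adjusted p 0.0559 to 0.0802). Dbp kept it with the inner retina level (adjusted p = 0.00187) and with the GC and length trend removed (adjusted p = 0.000446), while Cry2 lost it under both (adjusted p = 0.109 and 0.0787). Csnk1e held with the inner retina level (adjusted p = 0.0201) and not with the trend removed (adjusted p = 0.203). These refits also added calls. With the inner retina level, 1 gene was called higher in the REV-ERB and DEC list and 1 in the list that holds Csnk1e. With the trend removed, 1 of the clock activators was called lower. Of 15 tested clock output and cell cycle genes 1 was called, Por, a reductase of cytochromes P450, at 69.6 ± 2.27 CPM at CT10, against 85.6 ± 3.45 CPM at CT1 (log2 fold change -0.30, adjusted p = 0.0301). Its call was lost without any one of CT10 replicate 2, CT10 replicate 4, CT10 replicate 5, CT1 replicate 1, CT1 replicate 4 and CT1 replicate 5 (adjusted p 0.0524 to 0.083).

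Among the activators, Arntl, the gene of BMAL1, averaged 159 ± 3.31 CPM at CT10, against 156 ± 4.27 CPM at CT1 (log2 fold change 0.02, adjusted p = 0.861), and Npas2 0.395 ± 0.0999 CPM at CT10, against 0.553 ± 0.168 CPM at CT1 (log2 fold change -0.48, adjusted p = 0.544). Per2 stood at 28.4, 15.2, 25.3 and 15.4 CPM in the CT10 libraries, against 27.8, 24.9, 44.3 and 25.4 CPM in the CT1 libraries. Replicates 1 and 4 at CT10 lay among the CT1 libraries and replicates 2 and 5 below them, and the difference did not pass the test (log2 fold change -0.54, SE 0.18, adjusted p = 0.0684). Per1 averaged 102 ± 3.93 CPM at CT10, against 109 ± 22.7 CPM at CT1 (log2 fold change -0.11, adjusted p = 0.711) and Per3 149 ± 17.5 CPM at CT10, against 131 ± 49.2 CPM at CT1 (log2 fold change 0.18, adjusted p = 0.57). Nr1d1, the gene of REV-ERB alpha, averaged 167 ± 22.6 CPM at CT10, against 178 ± 15.9 CPM at CT1 (log2 fold change -0.09, adjusted p = 0.625), and Nr1d2 195 ± 14.4 CPM at CT10, against 162 ± 11.8 CPM at CT1 (log2 fold change 0.27, adjusted p = 0.0522). In KO, Dbp averaged 134 ± 12.6 CPM at CT10, against 139 ± 15.2 CPM at CT1 and Cry2 153 ± 9.69 CPM at CT10, against 158 ± 7.56 CPM at CT1, both above the WT levels at either time, and neither was called between the times. Of the clock genes with the smallest p-values in each direction, the promoters of Dbp, Nr1d2, Cry2 and Csnk1e were searched for CACGTG (E-box), TTATGTAA (D-box) and AGGTCA on both strands, from 250 bases before to 50 after the start. AGGTCA was found at 1 place, in Nr1d2, and none of the others was found in these windows, while 7.15%, 0.938% and 16.3% of the 32851 promoters hold the 3 motifs. Per2 was not matched.

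Of 46 nuclear genes of oxidative phosphorylation, 44 had a negative log2 fold change, with a median of -0.25. Beside 3.03% of all genes, 2 of the 46 were called lower, the ATP synthase subunit Atp5d at 70.4 ± 4.21 CPM at CT10, against 93.8 ± 12.2 CPM at CT1 (log2 fold change -0.41, adjusted p = 0.00968) and the complex I subunit Ndufv1 at 141 ± 6.02 CPM at CT10, against 169 ± 16.6 CPM at CT1 (log2 fold change -0.26, adjusted p = 0.0252). Of 45 ribosomal protein genes, 44 were negative, with a median of -0.35, and 0 were called by edgeR. The transcripts of both lists are short, with a median length of 1298 bases for the first list and 1128 for the second, against 2968 for all tested genes. With the GC and length trend removed the medians were -0.12 and -0.17, and neither of the 2 calls held. All 11 tested genes of the mitochondrial genome were positive, with a median of 0.17 and 0 called by edgeR, and the median with the trend removed was 0.01. Their mean log2 CPM was 6.39 to 7.25 at CT10 and 6.32 to 6.97 at CT1, again with overlap. Ndufv1 lost its call without any one of CT10 replicate 1, CT10 replicate 5, CT1 replicate 1 and CT1 replicate 5 (adjusted p 0.0546 to 0.112).

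Of 28 gene identifiers for the 27 symbols listed for glycolysis and lactate transport, 3 were called, all lower, beside 3.03% of all genes. They were the enolase Eno2 at 433 ± 30.4 CPM at CT10, against 564 ± 92.5 CPM at CT1 (log2 fold change -0.38, adjusted p = 0.00982), the lactate dehydrogenase Ldha at 1116 ± 75.5 CPM at CT10, against 1444 ± 193 CPM at CT1 (log2 fold change -0.37, adjusted p = 0.0328) and the kinase Pgk1 at 126 ± 7.98 CPM at CT10, against 166 ± 22.6 CPM at CT1 (log2 fold change -0.40, adjusted p = 0.0459). Eno2 was the 1 of these to hold with the trend on GC content and length removed (adjusted p = 0.04). Ldha lost its call without any one of CT10 replicate 1, CT10 replicate 4, CT10 replicate 5, CT1 replicate 1 and CT1 replicate 5 (adjusted p 0.0535 to 0.123). Pgk1 lost it without any one of CT10 replicate 1, CT10 replicate 2, CT10 replicate 4, CT10 replicate 5, CT1 replicate 1, CT1 replicate 4 and CT1 replicate 5 (adjusted p 0.0584 to 0.153). Of 24 genes of cholesterol synthesis 3 were called lower, beside the same 3.03%, the kinase Pmvk (log2 fold change -0.42, adjusted p = 0.0043), the reductase Dhcr7 (log2 fold change -0.36, adjusted p = 0.0238) and the regulator Srebf2 (log2 fold change -0.34, adjusted p = 0.019), and 0 of the 3 held with the trend removed, with adjusted p of 0.146, 0.086 and 0.119. Dhcr7 lost its call without any one of CT10 replicate 2, CT10 replicate 4 and CT1 replicate 5 (adjusted p 0.0591, 0.0832 and 0.0865). Srebf2 lost it without CT10 replicate 1 or CT10 replicate 2 (adjusted p 0.0567 and 0.0608).

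Of 27 genes of autophagy and lysosomes, 4 were called lower and 0 higher, beside 3.03% lower and 2.76% higher of all genes, and the median log2 fold change was -0.13. Among them are 3 that code for the ubiquitin-like proteins that coat autophagosomes. Gabarapl1 stood at 209, 229, 219 and 241 CPM in the CT10 libraries, against 356, 281, 276 and 447 CPM in the CT1 libraries, without overlap (log2 fold change -0.60, SE 0.12, adjusted p = 0.00446). Gabarap averaged 46.03 ± 1.49 CPM at CT10, against 67.9 ± 14.3 CPM at CT1 (log2 fold change -0.56, adjusted p = 0.00553) and Map1lc3a 19.9 ± 2.82 CPM at CT10, against 33.6 ± 7.35 CPM at CT1 (log2 fold change -0.76, adjusted p = 0.00582). All 3 held with the inner retina level as a covariate and with the GC and length trend removed, and with both Map1lc3a did not (adjusted p = 0.269). The fourth, Tecpr1, averaged 162 ± 4.05 CPM at CT10, against 198 ± 13.01 CPM at CT1 (log2 fold change -0.29, adjusted p = 0.0181) and lost its call without any one of CT10 replicate 1, CT10 replicate 2 and CT1 replicate 4 (adjusted p 0.0564, 0.051 and 0.055). Its call did not hold with the trend removed (adjusted p = 0.182).

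Of 28 genes of the unfolded protein response, 5 were called lower and 0 higher, beside 3.03% lower and 2.76% higher of all genes. Only Xbp1 of these held with the inner retina level as a covariate (adjusted p = 0.0173) and with the trend removed (adjusted p = 0.0467), and 0 of the 5 held with both (adjusted p = 0.0685 for Xbp1). Xbp1, a transcription factor of the endoplasmic reticulum, averaged 64.03 ± 8.02 CPM at CT10, against 97.2 ± 15.98 CPM at CT1 (log2 fold change -0.60, adjusted p = 0.014) and lost its call without CT10 replicate 2 or CT10 replicate 5 (adjusted p 0.0509 and 0.0535). The other called members were Atf4 (log2 fold change -0.32, adjusted p = 0.0336), Ddit4 (log2 fold change -0.37, adjusted p = 0.0261), Manf (log2 fold change -0.46, adjusted p = 0.036) and Trib3 (log2 fold change -0.49, adjusted p = 0.0459). They were called in 2, 4, 2 and 1 of the 8 fits without 1 library. Atf4 was lost without any one of CT10 replicate 1, CT10 replicate 2, CT10 replicate 4, CT10 replicate 5, CT1 replicate 1 and CT1 replicate 5 (adjusted p 0.0527 to 0.134), Ddit4 without any one of CT10 replicate 1, CT10 replicate 2, CT10 replicate 4 and CT1 replicate 5 (adjusted p 0.0511 to 0.0874), Manf without any one of CT10 replicate 1, CT10 replicate 2, CT10 replicate 4, CT10 replicate 5, CT1 replicate 1 and CT1 replicate 5 (adjusted p 0.0629 to 0.138) and Trib3 without any one of CT10 replicate 1, CT10 replicate 2, CT10 replicate 5, CT1 replicate 1, CT1 replicate 3, CT1 replicate 4 and CT1 replicate 5 (adjusted p 0.0638 to 0.127). None of 22 heat shock genes was called by edgeR, and their median log2 fold change was -0.26. Of 25 genes against oxidative stress 1 was called higher and 3 lower, beside 2.76% and 3.03% of all genes. Gclc, a subunit of the enzyme that limits glutathione synthesis, averaged 42.5 ± 3.59 CPM at CT10, against 34.2 ± 2.46 CPM at CT1 (log2 fold change 0.31, adjusted p = 0.00648). Its WT difference exceeded that of KO by 0.44 (SE 0.10, adjusted p = 0.0289). The lower ones were Srxn1, Gpx4 and Prdx2, at log2 fold changes of -0.43, -0.65 and -0.51, and 0 of the 3 held with the trend removed or with the inner retina level as a covariate. Srxn1 lost its call without CT1 replicate 1 (adjusted p 0.0511). Gpx4 lost it without any one of CT10 replicate 1, CT10 replicate 5, CT1 replicate 1 and CT1 replicate 5 (adjusted p 0.0676 to 0.105), and Prdx2 without any one of CT10 replicate 1, CT10 replicate 4, CT10 replicate 5, CT1 replicate 1 and CT1 replicate 5 (adjusted p 0.0588 to 0.147). Of 23 splicing genes 1 was called, Luc7l2, at 146 ± 5.90 CPM at CT10, against 113 ± 12.1 CPM at CT1 (log2 fold change 0.37, adjusted p = 0.00624).

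The largest positive fold change among the genes open to naming was that of Kif4, a mitotic kinesin (ENSMUSG00000034311, chrX:100625737-100727214, plus strand). Kif4 stood at 29.7, 31.1, 31.1 and 26.1 CPM in the CT10 libraries, against 2.80, 4.98, 3.35 and 3.35 CPM in the CT1 libraries. The CT10 libraries were about 8.14 times the CT1 libraries with no overlap (log2 fold change 3.03, SE 0.42, adjusted p = 7.13e-05). Kif4 starts 7244 bases downstream of the end of Arr3 on the same strand, and Arr3, as given above, was higher at CT10 by 1.02. In KO, Kif4 averaged 4.24 ± 2.41 CPM at CT10, against 4.24 ± 1.79 CPM at CT1 and Arr3 271 ± 56.7 CPM at CT10, against 277 ± 52.5 CPM at CT1. At the 4 times in WT, Kif4 averaged 3.62 ± 0.943 at CT1, 29.5 ± 2.34 at CT10, 10.5 ± 6.10 at CT19 and 7.98 ± 1.69 at CT22 CPM and Arr3 291 ± 36.5 at CT1, 588 ± 151 at CT10, 368 ± 143 at CT19 and 318 ± 62.2 at CT22 CPM. Both were highest at CT10 and had their widest or nearly widest spread at CT19.

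Other genes with large positive fold changes were Antxr2, an anthrax toxin receptor, at 32.2 ± 14.99 CPM at CT10, against 10.2 ± 1.84 CPM at CT1 (log2 fold change 1.65, adjusted p = 0.0128), the collagen Col19a1 at 18.1 ± 2.12 CPM at CT10, against 5.99 ± 1.63 CPM at CT1 (log2 fold change 1.60, adjusted p = 0.000588), and Jchain, which joins immunoglobulin chains, at 20.9 ± 1.61 CPM at CT10, against 8.20 ± 0.967 CPM at CT1 (log2 fold change 1.35, adjusted p = 2.68e-05). The transcription factor Rfx5 averaged 27.3 ± 2.84 CPM at CT10, against 11.5 ± 2.88 CPM at CT1 (log2 fold change 1.24, adjusted p = 0.000369), and Glmn, a glomulin that binds a ubiquitin ligase, 152 ± 28.9 CPM at CT10, against 65.4 ± 17.1 CPM at CT1 (log2 fold change 1.22, adjusted p = 0.000213). Pdzph1 (ENSMUSG00000024227, chr17:58878808-58991375, minus strand) stood at 502, 676, 455 and 647 CPM in the CT10 libraries, against 223, 311, 229 and 252 CPM in the CT1 libraries, with no overlap (log2 fold change 1.17, SE 0.15, adjusted p = 1.84e-05). Klf7, a zinc finger factor of neurons, averaged 33.9 ± 1.86 CPM at CT10, against 21.1 ± 3.18 CPM at CT1 (log2 fold change 0.69, adjusted p = 8.34e-05). The receptor phosphatase Ptprg averaged 30.6 ± 10.1 CPM at CT10, against 13.3 ± 2.72 CPM at CT1 (log2 fold change 1.21, adjusted p = 0.00332).

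Among the lowest fold changes besides those of signalling genes were Tpbgl at 0.707 ± 0.118 CPM at CT10, against 3.65 ± 1.79 CPM at CT1 (log2 fold change -2.37, adjusted p = 0.000462) and Hkdc1, a hexokinase-like gene, at 0.959 ± 0.312 CPM at CT10, against 2.59 ± 0.688 CPM at CT1 (log2 fold change -1.43, adjusted p = 0.0036). Pnck, a kinase related to calmodulin-dependent kinase I, averaged 0.801 ± 0.168 CPM at CT10, against 2.08 ± 0.754 CPM at CT1 (log2 fold change -1.38, adjusted p = 0.00369), and Irak2, a kinase of interleukin receptor signalling, 1.28 ± 0.325 CPM at CT10, against 3.34 ± 1.21 CPM at CT1 (log2 fold change -1.37, adjusted p = 0.00171). Tmem256 averaged 5.50 ± 0.719 CPM at CT10, against 13.8 ± 5.05 CPM at CT1 (log2 fold change -1.33, adjusted p = 0.000236). The water channel Aqp1 stood at 293, 314, 227 and 316 CPM in the CT10 libraries, against 526, 485, 581 and 629 CPM in the CT1 libraries, without overlap (log2 fold change -0.95, SE 0.12, adjusted p = 1.84e-05). The membrane protein Plekhb1, the channel Ttyh1 and the gene Dip2b had log2 fold changes of -0.91, -0.98 and -0.82, with adjusted p of 1.40e-05, 1.40e-05 and 1.71e-05.

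Some lower genes lie side by side. Irf7, a transcription factor of the interferon response (chr7:141262706-141266481, minus strand), stood at 36.04, 24.4, 25.02 and 24.02 CPM in the CT10 libraries, against 116, 74.01, 150.0 and 128 CPM in the CT1 libraries. All 4 CT10 values were below all CT1 values (log2 fold change -2.09, SE 0.24, adjusted p = 8.25e-06). Drd4 lies 25525 bases from Irf7, and between them lies Sct, the gene of the hormone secretin, at 0.336 ± 0.0761 CPM at CT10, against 0.824 ± 0.346 CPM at CT1 (log2 fold change -1.27, adjusted p = 0.0448). Sct was singled out after its values were seen, its level is close to 1 CPM, and its call was lost without any one of CT10 replicate 1, CT10 replicate 2, CT10 replicate 4, CT10 replicate 5, CT1 replicate 1 and CT1 replicate 5 (adjusted p 0.059 to 0.151). In KO, Irf7 averaged 80.7 ± 18.8 CPM at CT10, against 109 ± 10.4 CPM at CT1. On chromosome 1, the chaperone gene Dnajb2 (chr1:75236406-75245692, plus strand) and Ptprn, a protein of secretory granules (chr1:75247027-75264502, minus strand), lie 1335 bases apart on opposite strands. Dnajb2 stood at 89.1, 92.9, 96.004 and 90.05 CPM in the CT10 libraries, against 148, 132, 165 and 167 CPM in the CT1 libraries, with no overlap (log2 fold change -0.73, SE 0.08, adjusted p = 4.55e-06), and Ptprn averaged 41.2 ± 19.4 CPM at CT10, against 109.6 ± 35.1 CPM at CT1 (log2 fold change -1.41, adjusted p = 0.00583). By contrast, the lower genes Fos, Ldha, Nr4a3, Scgn and Irak2 each lie near a called gene that was higher at CT10. How often called genes have a called neighbour was not tested.

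**Figure D4:**
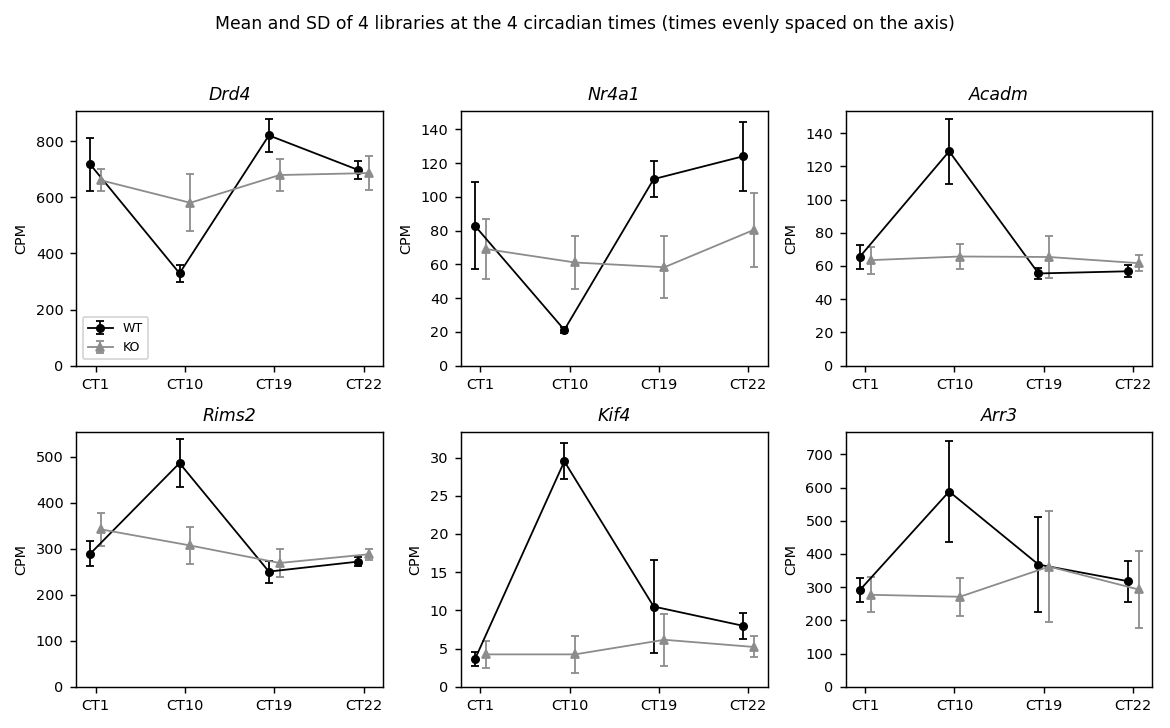
Mean CPM with SD of 4 libraries at CT1, CT10, CT19 and CT22 in WT (black circles) and KO (grey triangles) for 6 genes. Times are evenly spaced on the axis. In WT, Drd4 and Nr4a1 are low at CT10, and Acadm, Rims2, Kif4 and Arr3 are high.

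Markers of other retinal cells had mostly negative log2 fold changes. They were negative for 18 of 18 Müller cell markers (median -0.48), 17 of 17 amacrine markers (median -0.64), 16 of 19 bipolar markers (median -0.59) and 16 of 17 tested pigment epithelium markers (median -0.74), against a median of -0.02 for all tested genes. Beside 3.03% of all genes, 2 of the 19 bipolar cell markers were called lower at CT10 (Scgn and Lhx4), and the 19 summed to 763 to 1004 CPM at CT10 and 839.8 to 1079.9 CPM at CT1. Of 18 Müller cell markers 2 were called lower (Car2 and Apoe), with sums of 716 to 1109 CPM at CT10 and 936 to 1421 CPM at CT1. Of 17 amacrine markers 2 were called lower (Gad1 and C1ql2), with sums of 105 to 135 CPM at CT10 and 142 to 229 CPM at CT1. A total of 1 of 9 horizontal cell markers (Sept4), 1 of 17 tested pigment epithelium markers (Krt18) and 1 of 15 vascular markers (Cldn5) were lower, and 0 of the ganglion cell, astrocyte, microglia, blood and corneal markers were called. Every one of the markers in the deposited table had counts in both groups except Slc4a1 of red cells, at 0 in all CT1 libraries, and the corneal keratin Krt14, at 0 in both. Scgn, a calcium-binding protein of cone bipolar cells, stood at 7.68, 2.91, 5.10 and 6.48 CPM in the CT10 libraries, against 16.1, 10.9, 8.05 and 11.3 CPM in the CT1 libraries, without overlap (log2 fold change -1.06, SE 0.25, adjusted p = 0.0121). Of these marker genes only Sept4 was among the 312. The call of Scgn was lost without CT1 replicate 1 (adjusted p 0.0643), that of Lhx4 without CT10 replicate 2 (adjusted p 0.0649) and that of Car2 without CT1 replicate 5 (adjusted p 0.0522). The calls of Gad1, Apoe, C1ql2, Cldn5 and Krt18 held in 4, 3, 3, 3 and 2 of the 8 fits without 1 library, and each of the 5 was lost without CT10 replicate 2, CT10 replicate 4 or CT1 replicate 1, with adjusted p up to 0.40 for C1ql2. Gad1 was also lost without CT10 replicate 1, and Apoe without CT10 replicate 5 or CT1 replicate 5. C1ql2 was also lost without CT10 replicate 1 or 5, Cldn5 without CT10 replicate 5 or CT1 replicate 3, and Krt18 without CT10 replicate 1 or 5 or CT1 replicate 5. With the inner retina level as a covariate, 885 genes were called, 4.95%, and 546 of them were among the 1036. With the trend on GC content and length removed 701 were called, 3.92%, of which 513 were among the 1036. With both, 484 were called, 2.71%, of which 285 were among the 1036. The part of these cells' RNA in the fold changes was not tested beyond this covariate.

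In KO, 0 of 17871 genes were called between CT10 and CT1 by edgeR, 0 by DESeq2 and 0 by limma, with 1011 genes at an unadjusted edgeR p under 0.05 and a smallest adjusted p of 0.849. In WT 4001 genes had an unadjusted p under 0.05. Of the 494 genes higher in WT, 269 were also above 0 in KO, with a median log2 fold change of 0.49 in WT, by which they were chosen, and 0.01 in KO. Of the 542 lower in WT, 269 were also below 0 in KO, with medians of -0.52 in WT and 0.0 in KO. The test of the difference between the genotypes called 105 genes, 0.588% of those tested, and 101 of them were among the 1036. The WT difference is itself part of this test, so that overlap is not separate evidence. It called 48 where WT exceeded KO (0.269%) and 57 where WT was below KO (0.319%). Genes with the smallest p for this difference included Dip2b at -1.0 (SE 0.15, adjusted p = 0.00237), Rims2, Drd4, Pdzph1 at 1.26 (SE 0.21, adjusted p = 0.00525), Dnajb2 at -0.67 (SE 0.11, adjusted p = 0.00525), Klf7 at 0.80 (SE 0.14, adjusted p = 0.00589) and Acadm.

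The count for the difference also depended on single libraries. Leaving out WT CT1 replicate 1 gave 33. It was 48 without WT CT10 replicate 2, 67 without WT CT1 replicate 5 and 256 without WT CT1 replicate 3. It was 37, 51 and 52 without KO CT10 replicates 4, 5 and 2, and 35, 59 and 69 without KO CT1 replicates 5, 1 and 6. Inner retina levels were 3.77 to 4.16 in KO at CT10 and 3.39 to 3.86 at CT1, against 2.53 to 3.38 in WT at CT10 and 3.15 to 4.05 at CT1. With that level as a covariate 26 genes were called for the difference, 15 of them among the 105. With the lens level added as well 0 were called by edgeR, with 1633 at an unadjusted p under 0.05. With the GC and length trend removed 138 were called, 95 of them among the 105.

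**Figure D5:**
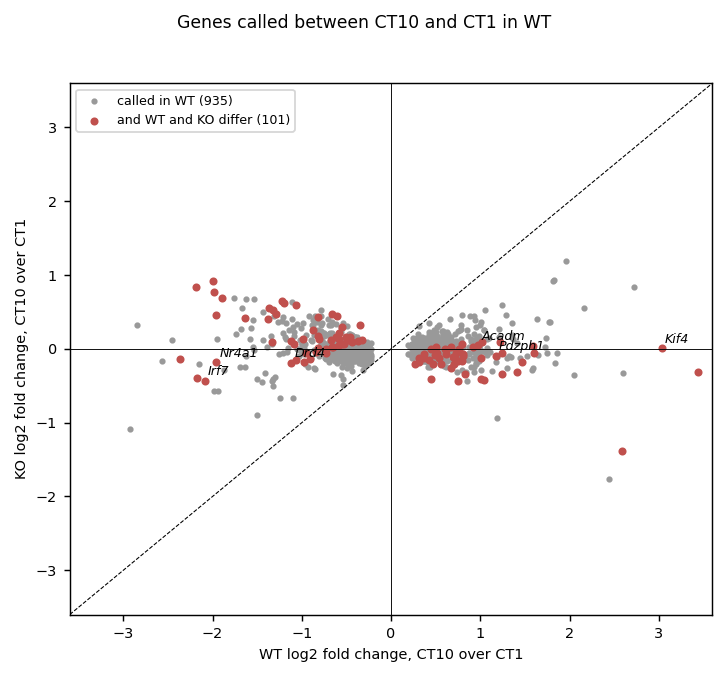
Log2 fold change of CT10 over CT1 in WT (horizontal) and in KO (vertical) for the 1036 genes called in WT. Red points are the 101 genes for which the difference between the genotypes was called too, and the dashed line marks equal fold changes. The genes spread along the horizontal axis, by which they were chosen, with KO medians of 0.01 for the 494 higher and 0.0 for the 542 lower genes.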

How the data were processed

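RNA of laser-microdissected mouse photoreceptors was sequenced in 32 libraries, and the authors deposited raw counts for 54232 Ensembl genes, with no normalization. HTSeq 0.11, Cufflinks, HISAT2 2.1.0 and Trimmomatic 0.32 are named in the submitters' processing notes, with build GRCm38.p6. Their roles, the handling of strand and of reads with several matches were not given in the sources used here. Reads of genes that overlap on opposite strands can therefore not be told apart, which concerns Irf7, Kif4, Ttyh1, Tpbgl, Glmn, Rfx5, Pde8b, Junb with Prdx2, Dusp1, Jund, Dbp, Gabarapl1, Atp5d, Gas6, Casz1, Me1 and Manf. Symbols and positions came from the GENCODE annotation of GRCm38, and promoters from RefSeq.

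The tests used edgeR 4.0.16 in R 4.3.3. Its filterByExpr (minimum count 10, minimum total 15) left 17871 genes. Libraries were scaled by TMM, and 1 robust quasi-likelihood fit with a mean for each of the 8 groups had 24 residual degrees of freedom. P-values were Benjamini-Hochberg adjusted over all tested genes, and a gene is called under 0.05. Adjusted p-values in the text are from this edgeR fit unless another tool is named. Means are given with SD over 4 libraries. Samples were grouped by their titles. Same-numbered libraries were not treated as pairs. Alternatives used DESeq2 1.42.0, limma 3.58.1, other filters and scalings, covariates, blocks, single libraries left out and, added after the data were seen, a GC and length trend removed. The procedure was checked on simulated counts for the WT comparison. It recovered 25.4% of 1.5-fold, 59.7% of 2-fold and 83.3% of 3-fold changes, so a gene that was not called can still differ.

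The rule for naming took the 15 highest and 15 lowest fold changes of called genes, the 12 smallest p-values and the 8 smallest p for the difference between genotypes. These were taken at an average log2 CPM of at least 1, without provisional symbols and pseudogenes. It also took core clock genes and up to 4 tested members of each list with the smallest p, at any level. Ier2, Nr4a3, Jund, Egr1, Pde8a, Pde8b, Adcy8, Prkaca, Prkar1b, Trib3, Sct and the genes whose promoters are printed were chosen after their values were seen. Some genes that the rule named are not reported here. The comparison and the lists were chosen with earlier results of these data known. Intervals of counting error are not given, since the spread between libraries was larger (chi-square per degree of freedom 11.2 to 64.7 within groups).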

Additional observations from a re-analysis of the deposited data

Results flagged for a closer look

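In 236 sets of 4 libraries of 1 group that were screened, 1 library lay far from the other 3 in 17, and chance gives about 1 in 20. At CT10, Egr1 stood at 66.2 CPM in replicate 5 and at 3.50 to 8.75 CPM in the others, and Ier2 in the same library at 26.4 CPM, with 16.4 to 17.7 CPM elsewhere. Replicate 1 stood out at CT10 for Irf7 (36.04 CPM, the others 24.02 to 25.02), Jchain (18.5, the others 21.5 to 21.9) and Sv2c (8.83, the others 4.43 to 5.16). Replicate 2 stood out at CT10 for Acoxl (7.54 CPM, the others 4.49 to 4.78), Me1 (202, the others 158 to 162) and Cry2 (49.4, the others 59.4 to 61.3), and replicate 4 for Arntl (154 CPM, the others 159.9 to 161) and Trib3 (14.6, the others 9.46 to 10.1). At CT1, replicate 4 was high for Per1 (143 CPM, the others 94.4 to 101) and Per2 (44.3, the others 24.9 to 27.8). Replicate 3 stood out at CT1 for Glmn (91.03 CPM, the others 55.8 to 58.6), Luc7l2 (131, the others 106 to 109) and Sept4 (68.7, the others 85.8 to 87.5), replicate 1 for Gad1 (22.7, the others 10.6 to 12.6) and replicate 5 for Nr1d2 (145, the others 167 to 169.9).

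The CT10 against CT1 difference was itself called as different between WT and KO (interaction contrast, edgeR, adjusted p) for 32 of the genes described. Of all tested genes 0.588% were called so. Many of the genes described were chosen by their WT values or by this same difference, so their count cannot be set against that share. Given as WT minus KO on the log2 scale, it was above 0 for Kif4 (3.02), Col19a1 (1.65), Akap5 (1.58), Acoxl (1.47), Rfx5 (1.30), Pdzph1 (1.26), Glmn (1.13), Acadm (0.92), Rims2 (0.91), Adcy1 (0.90), Klf7 (0.80) and Gclc (0.44). It was below 0 for Tpbgl (-2.23), Adcy8 (-2.06), Irak2 (-1.93), Nr4a1 (-1.79), Pde10a and Pnck (-1.78 each), Irf7 (-1.67), Scgn (-1.65), Tmem256 (-1.42), Prkar1b (-1.13), Ier2 (-1.12), Dip2b (-1.0), Drd4 (-0.94), Aqp1 (-0.90), Rcvrn and Ttyh1 (-0.80 each), Plekhb1 (-0.77), Dnajb2 (-0.67), Sept4 (-0.66) and Pde8b (-0.63). Their adjusted p ran from 0.00237 for Dip2b and Rims2 to 0.0481 for Rcvrn.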

How the results depend on the processing

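The 1036 calls between CT10 and CT1 in WT became 618 without a filter on low counts, 1568 with DESeq2, 522 with limma voom and library weights, 189 with only the 8 WT libraries of the 2 times in the fit, 595 with all WT libraries and 484 with the GC and length trend removed and the inner retina level as a covariate. Without 1 library they ranged from 492 to 1467. The 105 calls for the difference between WT and KO became 69 without a filter, 350 with DESeq2, 26 with the inner retina level as a covariate, 0 with the lens level added (edgeR, 1633 at an unadjusted p under 0.05) and 34 with the inner retina level and the trend removed. Without 1 library they ranged from 33 to 256. The smaller fits also held fewer libraries, and the cause of these changes was not tested. The limma voom weights, lower for more variable libraries, were 0.683, 1.06, 0.556 and 0.529 for WT CT1 replicates 1, 3, 4 and 5. For WT CT10 replicates 1, 2, 4 and 5 they were 1.143, 1.087, 1.209 and 1.012. In KO 0 genes were called under every alternative run (edgeR, DESeq2 and limma voom, 1011, 1105 and 2248 at an unadjusted p under 0.05). Same-numbered libraries deviated together with correlations of 0.165, 0.177 and 0.075 in WT, so the number was not taken as a pairing. With a replicate block 933 genes were called in WT (851 of them among the 1036), 0 in KO and 121 for the difference. Of the 98 called genes described, 0 changed direction under any alternative. The number of them called was 36 with only the compared libraries and at least 48 under each of the others. Depth left genes near 1 CPM with about 25 counts in the shallowest library, which limits Sct, Nr4a3, Adcy8, Akap5 and their like.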

Other observations

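Ion channel genes outside the lists were among the lowest fold changes. Kcna6, a voltage-gated potassium channel, averaged 1.06 ± 0.332 CPM at CT10, against 2.72 ± 1.23 CPM at CT1 (log2 fold change -1.35, adjusted p = 0.00943) and lost its call without CT1 replicate 1 (adjusted p 0.0644). Cacna1i, a T-type calcium channel, averaged 1.0002 ± 0.231 CPM at CT10, against 2.51 ± 1.34 CPM at CT1 (log2 fold change -1.33, adjusted p = 0.0176) and lost it without any one of CT10 replicate 2, CT10 replicate 4 and CT1 replicate 1 (adjusted p 0.0569, 0.0527 and 0.083). Osbpl6, of the oxysterol-binding protein family, averaged 20.6 ± 12.2 CPM at CT10, against 59.8 ± 9.75 CPM at CT1 (log2 fold change -1.54, adjusted p = 0.0234) and lost its call without CT10 replicate 4 or CT10 replicate 5 (adjusted p 0.0691 and 0.0759). Among the higher genes, Adprhl1, related to ADP-ribosylhydrolases, averaged 3.09 ± 0.488 CPM at CT10, against 1.42 ± 0.446 CPM at CT1 (log2 fold change 1.11, adjusted p = 0.00176), and the kinetochore gene Nsl1 3.74 ± 0.606 CPM at CT10, against 1.80 ± 0.643 CPM at CT1 (log2 fold change 1.05, adjusted p = 0.0079). Of 5 cold-inducible genes 0 were called by edgeR, with a median log2 fold change of 0.06.

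The genes called higher at CT10 had a median GC content of 44.3% and a median length of 4492 bases, those called lower 54.5% and 2538 bases, and all tested genes 49.2% and 2968 bases. In the lowest GC quintile the median log2 fold change was 0.14 in WT and 0.05 in KO, and in the highest -0.15 in WT and -0.09 in KO. Across genes, the rank correlation of a library's deviation with GC content was -0.44 to -0.20 in the WT CT10 libraries and -0.14 to 0.18 in the WT CT1 libraries, and -0.34 to -0.20 in KO at CT10 and -0.41 to 0.23 in KO at CT1. The part of this trend in the WT calls was not separated beyond the refits given above.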
